A study of Mus musculus with 18 samples.

Results

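The transcripts examined here belong to the stress response driven by the transcription factors ATF4 and CHOP. They were picked out by gene symbol from a set proposed with earlier results of these data known, and are Atf4, Ddit3 (which encodes CHOP), Atf3, Atf5, Cebpb, Nupr1, Chac1, Trib3, Sesn2 and Adm2. All 10 were found among the 23420 gene rows of each table. They were followed by RNA-seq in whole mouse embryonic lungs collected at 14.5 dpc (days post coitus), a stage at which the epithelial airways branch into the surrounding mesenchyme. In 3 mouse lines Cre recombinase made from the Shh locus, which acts in the lung epithelium, deleted a floxed gene. Deficient lungs were Rptorf/f; ShhCre/+, Tfamf/f; ShhCre/+ or Cox10f/f; ShhCre/+, and control littermates were Rptorf/+; ShhCre/+, Tfamf/+; ShhCre/+ or Cox10f/+; ShhCre/+, with 3 samples in each of the 6 groups. Deficient and control lungs alike therefore carried the ShhCre allele, which replaces a copy of Shh, and controls were heterozygous for the floxed gene. The sources used here do not say whether a sample was a single lung or a pool. Rptor encodes a subunit of mTOR complex 1 (mTORC1), a growth regulator that responds to nutrients. Tfam encodes a protein that packages and transcribes mitochondrial DNA. Cox10 encodes an enzyme that makes the heme of cytochrome c oxidase in the respiratory chain.

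When a cell lacks amino acids or heme, accumulates unfolded protein in the endoplasmic reticulum (ER) or has damaged mitochondria, kinases phosphorylate the translation factor eIF2 alpha. Most translation then slows, while the mRNA of Atf4 is translated more efficiently, so that ATF4 protein can rise with little change of its transcript. ATF4 induces genes for amino acid synthesis and uptake and further transcription factors, among them CHOP, with which it acts on Chac1, Trib3 and other genes. mTORC1 also promotes ATF4 synthesis and its amino acid programme in growing cells. ATF4 binds DNA as a dimer with C/EBP proteins at a composite site called the C/EBP-ATF response element.

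Promoter sequences are shown for the 4 genes that held the core of this element, TGATGNAA, between 250 bases before and 50 bases after the start of the gene. All 10 genes were matched to RefSeq promoters of the mouse build GRCm38.p6, and Atf5 had a pair of alternative promoters, so that 11 promoters were searched on both strands. The core was held by 4 of the 11, compared with 3.97% of all 32851 promoters of this length. In each of the 4 promoters the core lay on the strand opposite to the gene, so that capitals mark its reverse complement, TTNCATCA. The form TGATGCAA occurred in Chac1, Atf3 and Nupr1 and in 0.895% of all promoters, and Trib3 held TGATGTAA. Each sequence is written 5′ to 3′ on the strand of its gene, as the 250 bases that precede the start or, for Trib3, as 30 bases around a core that lies 15 to 22 bases into the gene.
Chac1, chr2:119350992-119351241, plus strand: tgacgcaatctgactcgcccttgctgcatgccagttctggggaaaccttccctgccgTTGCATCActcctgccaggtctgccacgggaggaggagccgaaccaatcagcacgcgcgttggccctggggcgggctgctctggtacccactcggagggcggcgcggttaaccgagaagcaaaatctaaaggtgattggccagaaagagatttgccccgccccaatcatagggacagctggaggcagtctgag
Atf3, chr1:191183334-191183583, minus strand: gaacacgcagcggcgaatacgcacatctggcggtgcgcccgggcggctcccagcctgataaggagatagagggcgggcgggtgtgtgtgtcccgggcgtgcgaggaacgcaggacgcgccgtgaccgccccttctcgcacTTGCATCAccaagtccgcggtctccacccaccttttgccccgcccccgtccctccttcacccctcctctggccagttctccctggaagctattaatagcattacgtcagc
Nupr1, chr7:126625471-126625720, minus strand: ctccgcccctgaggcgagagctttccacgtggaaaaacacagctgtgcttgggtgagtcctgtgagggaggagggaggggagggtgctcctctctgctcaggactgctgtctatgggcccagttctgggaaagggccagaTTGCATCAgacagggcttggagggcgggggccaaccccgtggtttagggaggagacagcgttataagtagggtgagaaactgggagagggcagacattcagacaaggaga
Trib3, chr2:152344028-152344057, minus strand: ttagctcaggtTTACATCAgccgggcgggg

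The core lay 193 to 186 bases before the start in Chac1 and 110 to 103 bases before it in both Atf3 and Nupr1. Other motifs were rarer among these genes. The cAMP response element TGACGTCA (1.79% of all promoters) and the ER stress element (0.119%) were found in 0 of the 11. The AP-1 site TGANTCA (7.81%) was found in Ddit3 and the E-box CACGTG (7.15%) in Nupr1. A match is a description of the letters in this window only, and the genes with the core did not share a response, as described next.

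The measure was the normalised read count, the number of reads on a gene divided by a factor for the size of the library. A log2 fold change compares deficient with control lungs of a line on the scale of log2(value + 1), and the adjusted p is that of limma over all genes tested in the line. The threshold was 0.05. Tests were two-sided with 3 samples against 3, and p-values measure the spread between these samples. A gene was tested if 3 or more of the 6 samples of a line reached a value of 10, which left 14940 genes for Rptor, 15053 for Tfam and 14937 for Cox10. Adm2 did not reach this level in the Rptor and Cox10 lines and with this filter was tested in the Tfam line only.

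Totals of 27727200 to 29611100 normalised reads per sample left the precision set mainly by the 3 samples of a group. The targeted genes do not check the labels, because the deletion is in a part of a whole lung and controls were heterozygous, and their values overlapped between groups in each line. The summed level of 8 epithelial markers, all detected, was 29778 to 30760 in Rptor controls and 13210 to 16368 in Rptor-deficient lungs. It was 30412 to 30786 against 24293 to 26444 for Tfam and 23165 to 23455 against 16000 to 20740 for Cox10, so that deficient lungs were lower without overlap in every line. In such bulk samples fewer cells of a type and less RNA per cell cannot be told apart. Markers of mesenchyme (6 genes, 113448 to 133745 in controls against 222010 to 257226), leukocytes (6 genes, 3762 to 3959 against 5565 to 6693), endothelium (5 genes, 29186 to 30827 against 37705 to 41817), mesothelium (4 genes, 3381 to 4760 against 6728 to 7515) and liver (3 genes, 106 to 175.1 against 175.4 to 682) were higher without overlap in Rptor-deficient lungs. In the Tfam line leukocytes (3944 to 4298 against 4735 to 5134) and endothelium (29562 to 31104 against 31291 to 33242) were higher without overlap, and smooth muscle (4 genes, 20606 to 23824 against 15591 to 18319) was lower. Smooth muscle was also lower in the Cox10 line, by a narrow gap (12021 to 14002 against 8162 to 12006), and the other sums overlapped. In the Rptor line the sum hid a split, since Tagln, Myh11 and Cnn1 were lower (log2 fold changes -0.75, -1.51 and -1.66) and Acta2 higher (0.47). The part of these shifts in the values below was not tested.

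The members were called most often in the Tfam line. In Tfam-deficient lungs 5 of 9 (Chac1, Trib3, Atf5, Sesn2 and Atf3) were higher at the threshold, compared with 2.03% of all genes. None was lower (2.63% of all genes), and at an unadjusted p below 0.05 limma gave 7 of 9 higher (8.29%) and 0 lower (9.1%). The 3 deficient values lay above the 3 control values for 6 of the 9, compared with 10.9% of all genes. Adm2 is left out of these counts because it reached the level for testing through its deficient values, and with it 6 of 10 were higher. The call of Atf3 was lost in 4 of the 6 fits that left out a sample and in 1 fit of all 18 samples (limma adjusted p = 0.0892), which leaves 4 of 9. In the Cox10 line 1 of 9 tested members, Trib3, was higher at the threshold, compared with 0.141% of all genes. The count was 0 without any 1 of the 3 controls, where 3 to 5 of all 14937 genes passed. It was also 0 without deficient replicate 2 (32 genes) and with the replicate block (48 genes, with a limma adjusted p of 0.0566 for Trib3). It was 2, with Chac1, without deficient replicate 1 (74 genes) or 3 (251 genes). In 1 fit of all 18 samples the adjusted p of Trib3 was 0.0674 and Chac1 passed in its place. At an unadjusted p below 0.05 there were 4 of 9 (6.4% of all genes), and 4 of 9 were higher without overlap, compared with 10.6%. For Rptor 2 of 9 (Ddit3 and Atf3) were higher, compared with 16.6% of all genes, and 1 (Atf4) was lower, compared with 18.2%, so that the share of members that changed in this line, 3 of 9, was near that of all genes, 34.8%. With the replicate number as a block, 0 were higher and 2 (Atf4 and Sesn2) lower, and 38.6% of all genes changed. There were 0 higher and 1 lower without deficient replicate 1 or 2 or without control replicate 1 or 2. In these fits 3597 to 5336 of all 14940 genes passed. Values did not overlap for 2 members that were higher (24.3% of all genes) and 2 that were lower (26.0%). The median log2 fold change of these 9 members was 0.56 for Tfam, 0.26 for Cox10 and -0.012 for Rptor, while the median of all genes lay within 0.01 of 0 in each.

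**Figure D1:**
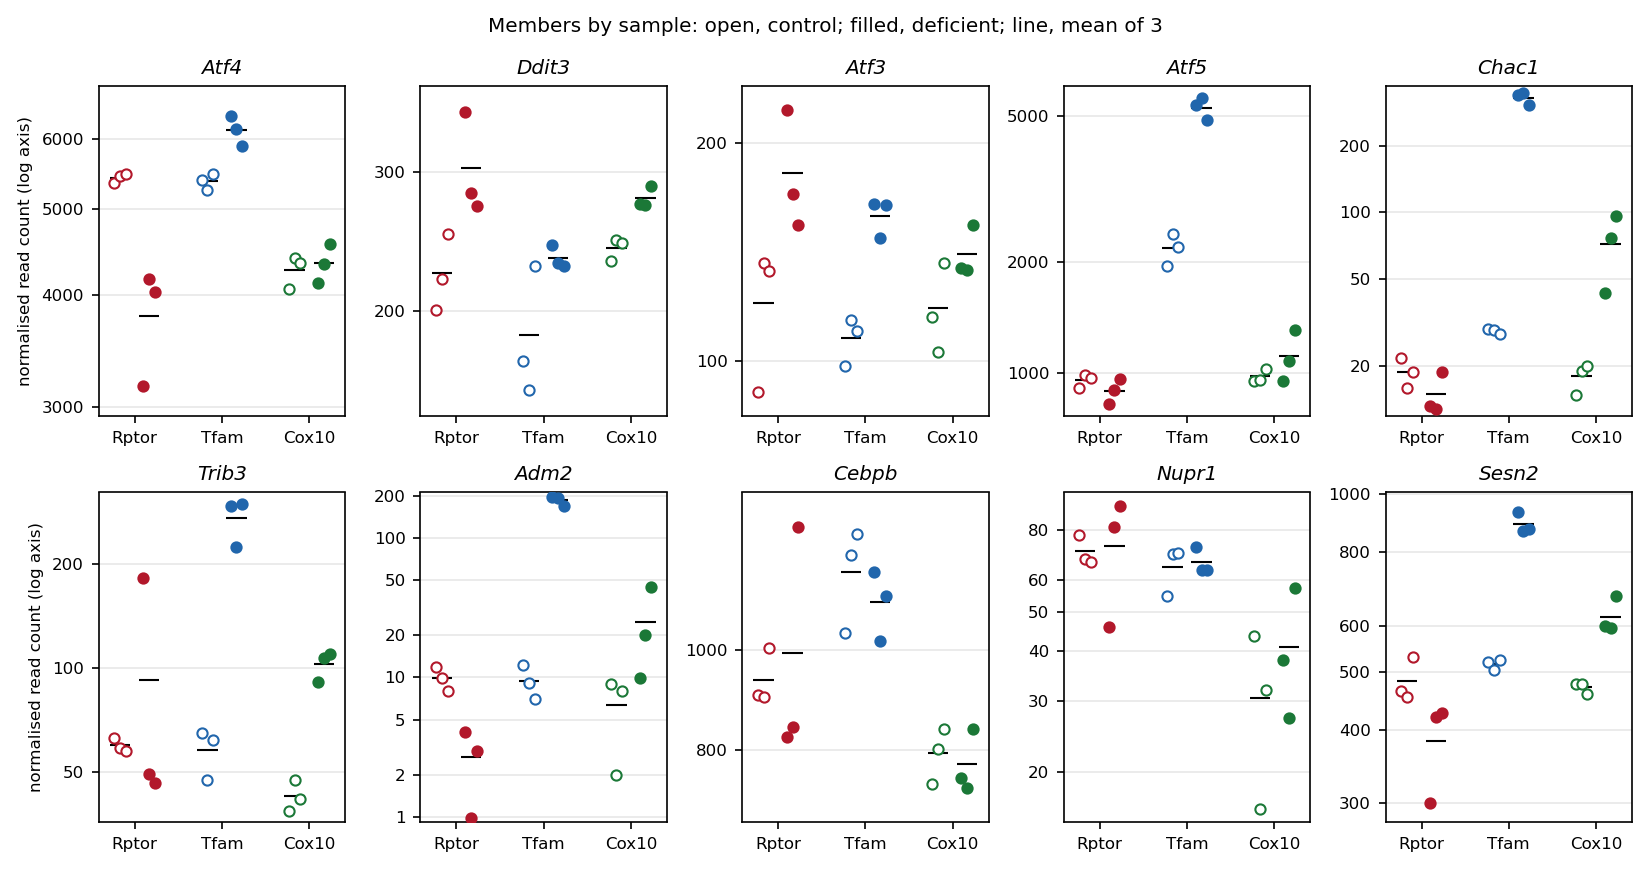
Normalised read counts of the 10 members in each of the 18 samples, on a log axis for each gene, with open circles for control and filled circles for deficient lungs and a line at the mean of 3. Tfam-deficient values of Chac1 (307 to 347), Adm2 (170 to 196) and Trib3 (223 to 297) lie far above their controls, whereas Atf4 is lower in Rptor-deficient lungs (3162 to 4172 against 5343 to 5471).

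Atf4 itself moved little in the lines with a mitochondrial deletion. Its normalised read counts were 5393, 5259 and 5471 in control and 6365, 6149 and 5879 in Tfam-deficient lungs. The groups did not overlap, but the log2 fold change of 0.19 (95% confidence interval 0.07 to 0.31) did not pass the threshold (limma adjusted p = 0.0860). Cox10-deficient lungs had 4132, 4334 and 4569 and their controls 4070, 4402 and 4343, which overlapped. With Rptor deleted, Atf4 fell from 5343, 5442 and 5471 in control to 3162, 4172 and 4038 in deficient lungs. Every deficient value was below every control value, and deficient replicate 1 was the lowest (log2 fold change -0.53, SE 0.097; limma adjusted p = 0.00424). The gene lies at chr15:80255184-80257545 on the plus strand of GRCm38.p6.

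The transcription factors that act beside ATF4 differed from each other. Atf5, which encodes a bZIP factor linked to the response to unfolded mitochondrial protein (chr7:44812256-44816658), rose in the Tfam line from 1949, 2388 and 2207 in control to 5367, 5602 and 4882 in deficient lungs. This was a 2.42-fold difference with groups far apart (log2 fold change 1.28, SE 0.081; limma adjusted p = 8.94e-06). Atf5 had 909, 987 and 968 in Rptor controls and 823, 894 and 962 in Rptor-deficient lungs, and in the Cox10 line 951, 957 and 1020 in control and 951, 1079 and 1304 in deficient lungs. Both overlapped between groups. Atf5 of Tfam controls lay above that of the other controls, although the tables had been normalised separately and this level was not compared by a test. Exons of Atf5 overlap those of Nup62 and Il4i1 on the other strand, and whether strand was used in counting is not stated. Nup62 had 4785 to 5017 in control and 4354 to 4517 in Tfam-deficient lungs, Il4i1 had at most 6.10 in that line, and their part in the values of Atf5 was not tested.

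Ddit3 encodes CHOP, a bZIP factor that can promote death of stressed cells (chr10:127290793-127296291). It rose from 200, 220 and 251 in Rptor controls to 358, 282 and 272 in Rptor-deficient lungs (log2 fold change 0.44, SE 0.14; limma adjusted p = 0.0417). Deficient replicate 1 was the highest, and the groups did not overlap. The call did not hold with the replicate number as a block (limma adjusted p = 0.0511) or without deficient replicate 1 (log2 fold change 0.31, limma adjusted p = 0.0870). In the Tfam line values were 173, 159 and 228 in control and 242, 230 and 228 in deficient lungs, so that control replicate 3 reached the deficient group. The log2 fold change of 0.34 did not pass (limma adjusted p = 0.220), and without control replicate 3 it was 0.49 (limma adjusted p = 0.0295). Cox10-deficient lungs had 273, 273 and 289 and their controls 231, 246 and 244, without overlap but not past the threshold (log2 fold change 0.21, limma adjusted p = 0.380). Exons of Ddit3 overlap those of Mars and Gm4189 on the other strand. Mars was lower in Rptor-deficient lungs (log2 fold change -0.55, limma adjusted p = 0.000602) and had 0.15 in the Tfam line (limma adjusted p = 0.238), and its part in the values of Ddit3 was not tested.

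Atf3, a bZIP factor induced early by many stresses (chr1:191170296-191183333), was higher in deficient lungs of the Rptor and Tfam lines. Rptor controls had 90.8, 137 and 133 and Rptor-deficient lungs 222, 170 and 154, which did not overlap and again had deficient replicate 1 highest (log2 fold change 0.60, SE 0.20; limma adjusted p = 0.0488). Blocking by replicate number ended this call too (limma adjusted p = 0.0604), as did leaving out deficient replicate 1 (0.111). In the Tfam line Atf3 rose from 98.5, 114 and 110 in control to 165, 148 and 164 in deficient lungs, again without overlap (log2 fold change 0.56, SE 0.12; limma adjusted p = 0.0254). This held in 2 of the 6 fits that left out a sample, with limma adjusted p between 0.0355 and 0.109. Cox10-deficient lungs had 135, 134 and 154 and their controls 115, 103 and 137, which overlapped.

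Cebpb and Nupr1 did not pass the threshold in any line. Cebpb encodes C/EBP beta, a dimerisation partner of ATF4 and CHOP (chr2:167688915-167690432). Its log2 fold changes were 0.05 for Rptor (95% confidence interval -0.32 to 0.43), -0.09 for Tfam (-0.29 to 0.11) and -0.04 for Cox10 (-0.22 to 0.14). In Rptor-deficient lungs replicate 3 stood apart with 1312, compared with 823 and 842 in the others and 900 to 1004 in controls. Exons of Cebpb overlap those of Tmem189 on the other strand. Tmem189 had log2 fold changes of -0.13 (Rptor), -0.17 (Tfam) and -0.07 (Cox10), none past the threshold. Its part in the values of Cebpb was not tested. Nupr1, which encodes a small chromatin protein induced by stress (chr7:126623246-126625470), had 54.9, 69.7 and 70.0 in Tfam controls and 72.5, 63.5 and 63.5 in Tfam-deficient lungs. Its log2 fold change of 0.04 in that line (95% confidence interval -0.32 to 0.41) contrasts with that of Chac1, although the promoters of both hold TTGCATCA.

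Among the effector genes, Chac1 had the smallest p-value of all 15053 genes in the Tfam line. It encodes an enzyme that degrades glutathione (chr2:119351242-119354326). Normalised read counts were 29.5, 29.3 and 28.0 in control and 341, 347 and 307 in Tfam-deficient lungs, a difference of 11.5-fold without overlap (log2 fold change 3.47, SE 0.13; limma adjusted p = 3.30e-07). Beside this, Cox10 lungs went from 14.9, 19.2 and 20.0 in control to 42.9, 76.4 and 95.9 in deficient lungs. These groups did not overlap, and the log2 fold change of 1.87 (95% confidence interval 1.14 to 2.61) was the third highest of that line, but deficient values spread widely and the limma adjusted p was 0.0607. It was 0.0269 without deficient replicate 1 and 0.0496 without deficient replicate 3. Chac1 had 21.9, 16.0 and 18.9 in Rptor controls and 13.3, 12.9 and 18.8 in Rptor-deficient lungs, overlapping values near the level at which genes were tested.

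Trib3 encodes a pseudokinase that binds ATF4 and CHOP and restrains AKT signalling (chr2:152337425-152344060). It rose in the Tfam line from 65.0, 47.5 and 62.0 in control to 294, 223 and 297 in deficient lungs, 4.67-fold (log2 fold change 2.20, SE 0.16; limma adjusted p = 3.20e-05). Cox10-deficient lungs had 90.8, 107 and 110 against 38.7, 47.4 and 42.0 in control, 2.40-fold higher, with a limma adjusted p of 0.0312. Leaving out 1 sample at a time kept this call in 2 of 6 fits, while the log2 fold change stayed between 1.18 and 1.32 in all 6. For Rptor a single library decided the mean. Controls had 62.8, 58.9 and 57.7, while Rptor-deficient lungs had 182, 49.5 and 46.4, so that replicate 1 was above and the other two below every control. The log2 fold change was 0.32 (95% confidence interval -0.72 to 1.36) with replicate 1 and -0.31 without it, and neither passed the threshold.

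Sesn2 encodes a sestrin that binds leucine and restrains mTORC1 (chr4:132492804-132510456). It rose in the Tfam line from 520, 504 and 524 in control to 933, 866 and 873 in deficient lungs, 1.73-fold with little spread within groups (log2 fold change 0.78, SE 0.069; limma adjusted p = 9.31e-05). Cox10-deficient lungs had 598, 594 and 672 and their controls 477, 478 and 460. All 3 deficient values were higher, but the log2 fold change of 0.39 (95% confidence interval 0.22 to 0.57) had a limma adjusted p of 0.0888. Rptor-deficient lungs had the opposite direction, with 466, 455 and 531 in control and 301, 421 and 426 in deficient lungs. Every deficient value was lower (log2 fold change -0.35), with a limma adjusted p of 0.0901, which became 0.0438 with the replicate number as a block.

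Adm2 encodes adrenomedullin 2, a secreted peptide that acts through the receptor CALCRL with its RAMP partners (chr15:89322720-89324731). It was close to the limit of detection in controls, with 12.2, 9.10 and 7.0 normalised reads in the Tfam line, and had 196, 193 and 170 in Tfam-deficient lungs. The difference was 19.7-fold (log2 fold change 4.19). Because its deficient values brought it past the level for testing, the fit without such a filter applies, in which the SE was 0.23 and the limma adjusted p 6.99e-06. Adm2 of the Cox10 line had 8.93, 2.02 and 7.99 in control and 9.98, 20.1 and 44.5 in deficient lungs, so that the lowest deficient value nearly met the controls (1.76 in the fit without a filter, limma adjusted p = 0.367). For Rptor it had 12, 9.99 and 7.96 in control and 4.08, 0.990 and 2.96 in deficient lungs. All were lower, and the fit without a filter gave a log2 fold change of -1.66 (95% confidence interval -2.63 to -0.70; limma adjusted p = 0.0221), although the values are worth only a few reads each.

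**Figure D2:**
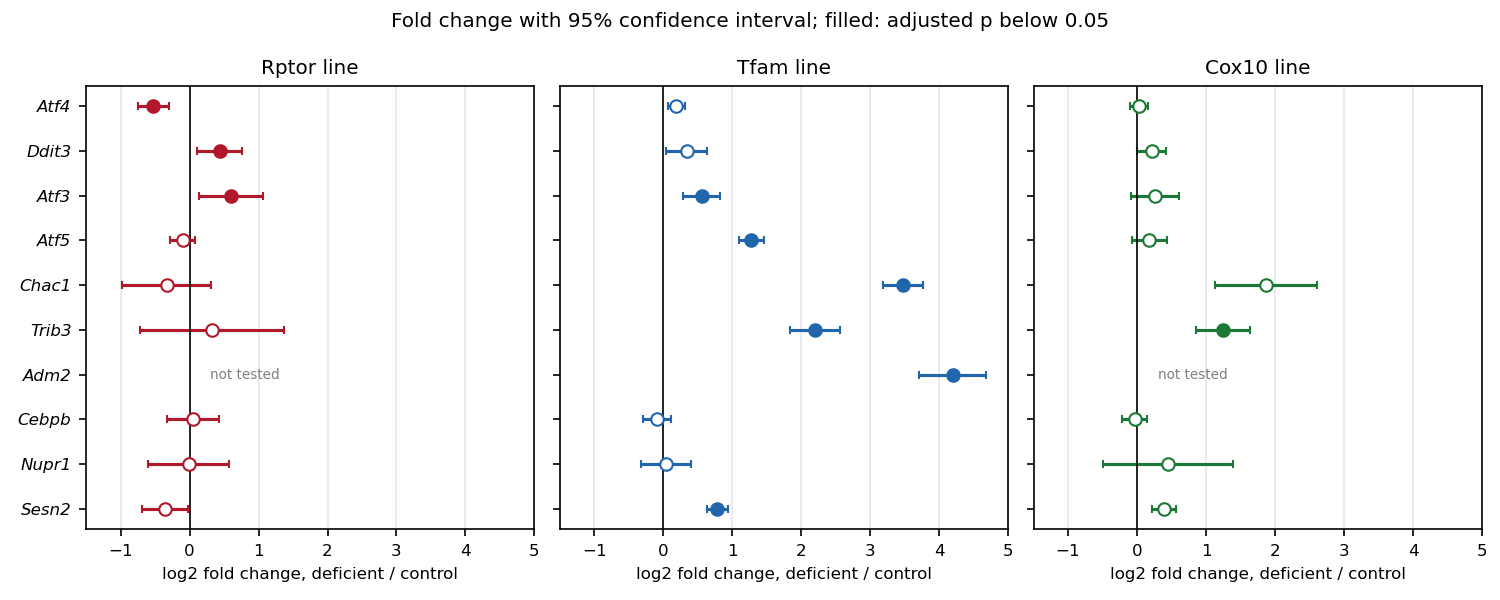
Log2 fold change of deficient over control lungs for each member and line, with bars for the 95% confidence interval and filled symbols for an adjusted p below 0.05. The points rise to 3.47 (Chac1) and 4.19 (Adm2) for Tfam and to 1.87 (Chac1) for Cox10, whereas Atf4 is at -0.53 in the Rptor line.

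Single deficient samples stood apart for some members in the Cox10 and Rptor lines. The mean deviation of the 9 members tested in all lines from the controls of their line, on the log2 scale, was 1.05, 0.93 and 0.95 in Tfam-deficient replicates 1 to 3 and 0.36, 0.45 and 0.72 in Cox10-deficient replicates. Cox10-deficient replicate 3 had the highest value of its group for all 10 members, including Adm2 and Atf5. This library also had the highest mean log2 level of Epcam, Cdh1 and Nkx2-1 in its group, 11.75 compared with 11.35 and 11.51, and a part of this in its member values was not tested. The Rptor-deficient mean deviations were 0.026, -0.060 and 0.064, which averages over members above and below the controls. Replicate 1 was the highest of its group for 4 of the 10 members (Ddit3, Atf3, Trib3 and Adm2) and the lowest for 5 (Atf4, Atf5, Cebpb, Nupr1 and Sesn2), and its epithelial level was the lowest, 10.9 compared with 11.2 and 11.4.

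**Figure D3:**
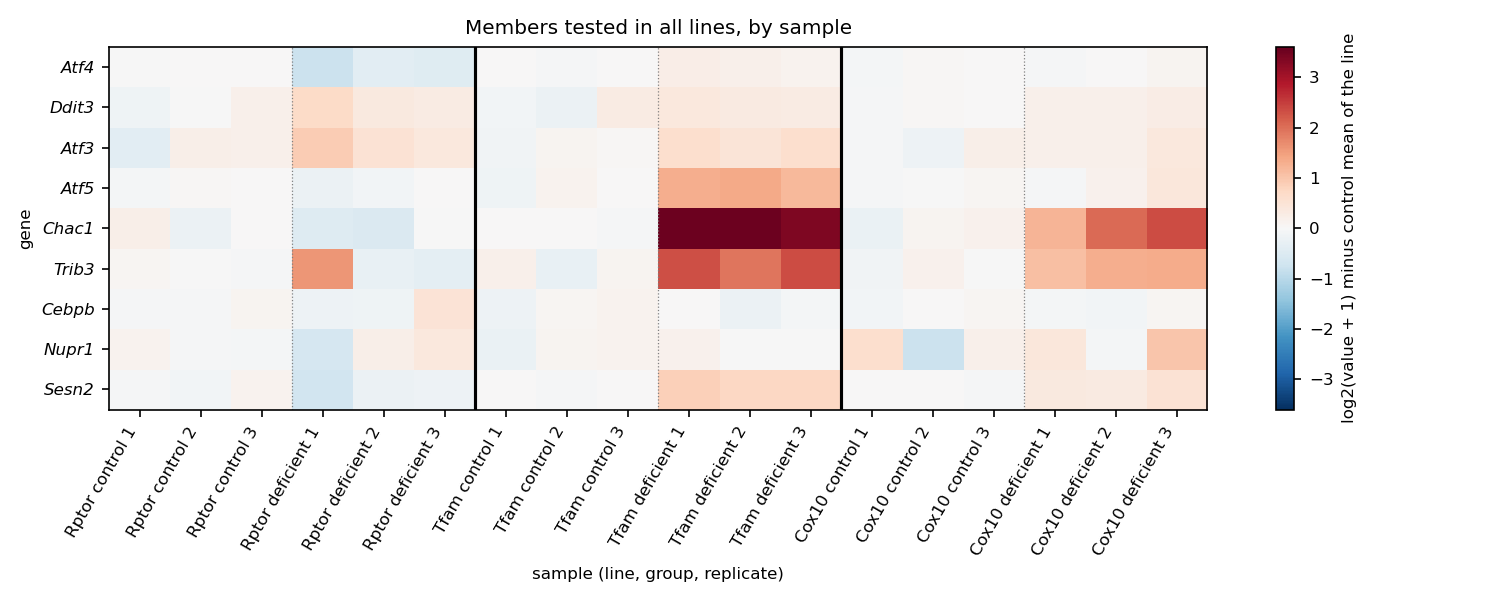
Colours show log2(value + 1) minus the control mean of the line for the 9 members tested in all lines (rows) in the 18 samples (columns), with red for higher and blue for lower. Tfam-deficient columns are red for Chac1, Trib3, Atf5 and Sesn2, Cox10-deficient replicate 3 is the reddest of its group, and Trib3 is red in replicate 1 only of the Rptor-deficient lungs.

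To ask whether a member responded differently between lines, the difference of the effects was tested in 1 model of all 18 samples over the 14550 genes tested in every line. Rptor and Tfam effects differed for 5 of 9 members, each lower in the Rptor line, compared with 6.35% of all genes. The differences on the log2 scale were -3.80 (95% confidence interval -4.53 to -3.07; limma adjusted p = 3.73e-06) for Chac1, -1.38 (-1.67 to -1.08; adjusted p = 1.02e-05) for Atf5 and -1.14 (-1.46 to -0.82; adjusted p = 0.000198) for Sesn2. Atf4 differed by -0.72 (-0.94 to -0.49; limma adjusted p = 0.000636) and Trib3 by -1.88 (-2.90 to -0.87; adjusted p = 0.0191). Ddit3 and Atf3, the members that were higher in Rptor-deficient lungs, did not pass, with differences of 0.10 (-0.29 to 0.49) and 0.04 (-0.45 to 0.54). Rptor and Cox10 effects differed for 3 of 9, compared with 4.21% of all genes, namely Chac1 by -2.20 (-2.93 to -1.47; limma adjusted p = 0.000825), Sesn2 by -0.75 (-1.07 to -0.43; adjusted p = 0.00543) and Atf4 by -0.55 (-0.78 to -0.32; adjusted p = 0.00462). Trib3 differed between these lines by -0.92 with all samples (limma adjusted p = 0.262) and by -1.55 without Rptor-deficient replicate 1 (adjusted p = 0.000969). The mean log2 level of the epithelial genes Epcam, Cdh1 and Nkx2-1 fell by 1.17 in the Rptor line, compared with 0.27 (Tfam) and 0.40 (Cox10). Relative to it, and without a test, Atf4 turned to 0.18 higher for Rptor than for Tfam and 0.23 higher than for Cox10, and Sesn2 was at -0.24 and 0.028. Chac1 stayed lower on this scale, at -2.90 and -1.42, as did Trib3 (-0.98) and Atf5 (-0.48) against Tfam.

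Tfam and Cox10 effects differed for 1 member, Atf5, by 1.10 (95% confidence interval 0.81 to 1.40; limma adjusted p = 0.00489), where 0.0481% of all genes, 7 in number, were higher in the Tfam line. Chac1 rose more in the Tfam line by 1.60 on the log2 scale, and its interval of 0.87 to 2.33 did not include 0, but the limma adjusted p was 0.240. The interval of Trib3, -0.05 to 1.97, and that of Atf4, -0.06 to 0.39, included 0. A difference in response between Tfam-deficient and Cox10-deficient lungs therefore passed the threshold for Atf5 only among the 9 members tested.

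**Figure D4:**
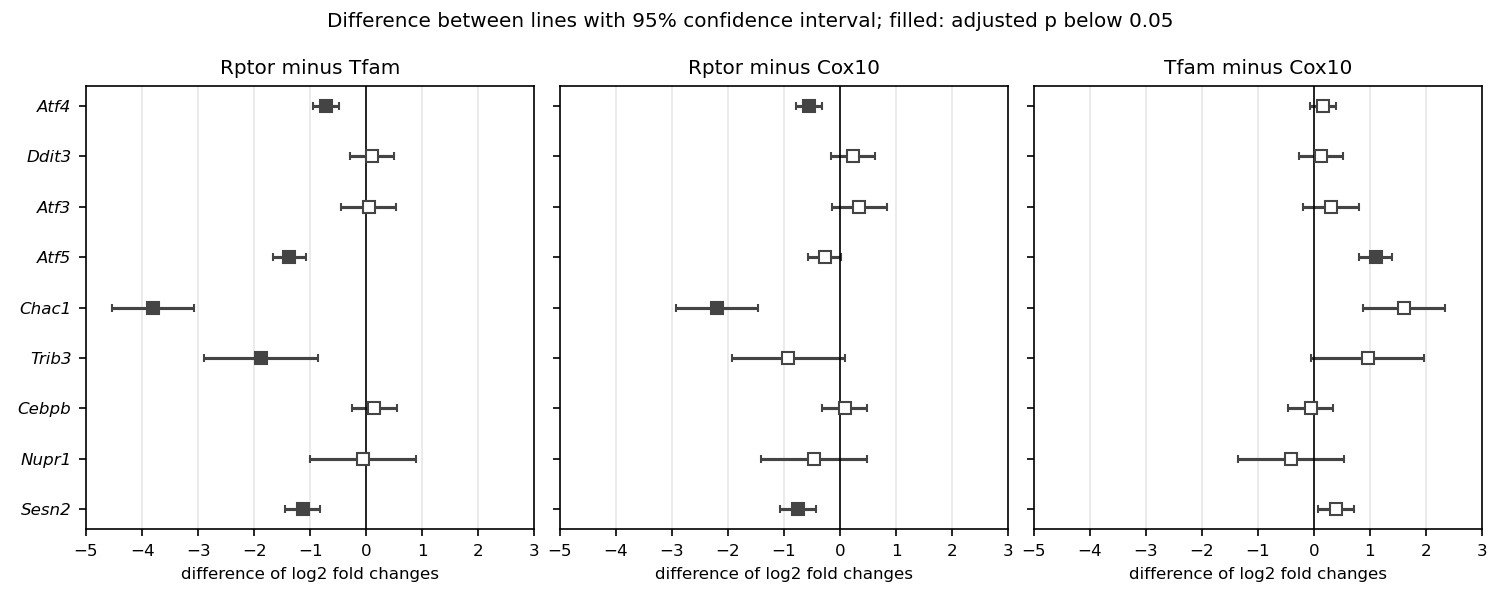
Difference between the log2 fold changes of a pair of lines for the 9 members tested in all lines, with bars for the 95% confidence interval and filled squares for an adjusted p below 0.05. Per library, Chac1, Atf4 and Sesn2 lie below 0 in both comparisons with the Rptor line (relative to epithelial genes Atf4 is above 0 in both and Sesn2 in that with Cox10), and Atf5 is the filled square between Tfam and Cox10, at 1.10.

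The genes upstream and downstream of the members were taken from lists of 130 genes, of which 128 were in the tables, 3 of them under an older symbol. Upstream, 0 of 9 genes of the eIF2 alpha kinases and their relay passed for Tfam or Cox10 in limma, where 2.63% and 0.335% of all genes were lower. At an unadjusted p below 0.05, 1 was higher and 1 lower for Tfam (8.29% and 9.1% of all genes), and 0 were higher and 2 lower for Cox10 (6.4% and 6.62%). These kinases act through phosphorylation, which RNA-seq does not measure. For Rptor 1 of the 9, Abcf1, a ribosome-associated protein that binds eIF2, was lower (log2 fold change -0.28), a smaller share than the 18.2% of all genes. Without Rptor-deficient replicate 1 there were 2 lower of the 9. Of 10 genes for subunits of eIF2, of its exchange factor eIF2B and of the phosphatases of eIF2 alpha, 8 were lower in the Rptor line, compared with 18.2% of all genes, a count of 5 without control replicate 1, control replicate 3 or deficient replicate 2. In limma 0 passed in the other lines. An unadjusted p below 0.05 was reached by 1 higher and 1 lower gene for Tfam (8.29% and 9.1% of all genes). For Cox10 it was reached by 2 lower genes (6.62% of all genes). Examples of those lower in the Rptor line are Eif2s1, the alpha subunit itself (-0.37), and Eif2b5, the catalytic subunit of eIF2B (-0.33).

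ATF4 target genes for amino acid metabolism included some that were higher in the Tfam line and lower in the Rptor line, such as Asns and Mthfd2. Of 13 enzymes 10 were higher in Tfam-deficient lungs (2.03% of all genes) and 0 lower (2.63%), and 0 were lower at an unadjusted p below 0.05 in limma (9.1%). The count of higher enzymes was 5 without control replicate 1, 6 without deficient replicate 1 or 2, and 7 to 10 without each of the others. The highest were Aldh1l2, an enzyme of mitochondrial folate metabolism (log2 fold change 2.32, limma adjusted p = 8.55e-07), Asns, which makes asparagine (1.57, adjusted p = 3.30e-07), Cth, which makes cysteine (1.28), and Mthfd2, another mitochondrial folate enzyme (1.01). In Rptor-deficient lungs 6 of the 13 were lower (18.2% of all genes), 2 higher (16.6%) and 5 short of the threshold. The lowest were Mthfd2 (log2 fold change -1.0, limma adjusted p = 5.75e-05), Psat1, which makes serine (-0.94), Asns (-0.75) and Phgdh, also of serine synthesis (-0.69), while Aldh1l2 was higher (0.40). Without Rptor-deficient replicate 1, 9 were lower and 0 higher, and without each of the other samples 5 were lower and 0 or 1 higher. With Cox10 deleted, 0 of 13 passed in limma (0.141% of all genes were higher and 0.335% lower), and 3 passed without deficient replicate 3. At an unadjusted p below 0.05 limma gave 0 lower (6.62% of all genes) and 5 higher (6.4%). Among the 5 was Asns (log2 fold change 0.60, limma adjusted p = 0.0544).

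The same was seen for amino acid transporters such as Slc7a5. Of 9, 6 were higher (2.03% of all genes) and 0 lower in Tfam-deficient lungs, led by Slc7a3 (log2 fold change 3.23), which imports arginine and lysine, Slc7a11 (1.36), which imports cystine, Slc7a5 (0.74), which imports leucine, and Slc6a9 (0.57), which imports glycine. With Rptor deleted, 5 of 9 were lower (18.2% of all genes), among them Slc7a5 (-0.61), Slc7a1 (-0.56) and Slc1a5 (-0.45), and Slc7a3 was higher (0.58, limma adjusted p = 0.0258), a call lost whichever sample was left out. In Cox10-deficient lungs Slc7a3 was the only one of the 9 past the threshold, with 58.6, 48.4 and 57.0 in control and 120, 170 and 215 in deficient lungs (log2 fold change 1.57, limma adjusted p = 0.0365). It passed in 2 of 6 fits that left out 1 sample each, and did not pass with the replicate block (limma adjusted p = 0.0566).

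Among secreted signals, Stc2, which encodes stanniocalcin 2, rose in the Tfam line. It had 129, 132 and 131 in control and 492, 436 and 497 in Tfam-deficient lungs (log2 fold change 1.85, limma adjusted p = 1.53e-06). Gdf15, a hormone of mitochondrial stress, had 2.03, 5.05 and 2.00 in control and 43.7, 16.9 and 37.1 in deficient lungs, by which alone it reached the level for testing. Stc2 of the Rptor line resembled Trib3 in that deficient replicate 1 stood apart, with 389 compared with 186 and 165 in the others and 176 to 201 in controls. Of 12 other ATF4 or CHOP targets, 3 were higher in the Tfam line, compared with 2.03% of all genes, and 5 in the Rptor line, compared with 16.6%. The Tfam count was 1 without control replicate 1 or deficient replicate 3, 2 without control replicate 2 or deficient replicate 1 or 2, and 4 without control replicate 3. Those of the Tfam line were Eif4ebp1, an inhibitor of translation that mTORC1 controls (log2 fold change 0.50), Bcl2l11, which promotes cell death (0.37), and Vldlr, a lipoprotein receptor (0.27), and Bcl2l11 (1.04) was second to Ndrg1 (1.22) in the Rptor line. Ndrg1 had 1329, 726 and 784 in Rptor-deficient lungs, with replicate 1 highest. With a sample left out its log2 fold change was as low as 0.95, compared with a lowest value of 1.00 for Bcl2l11.

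Genes of the other arms of the stress response stayed short of the threshold beside the members in the Tfam line. Of 19 ER chaperones and factors of the other unfolded protein response arms, 0 passed for Tfam or Cox10 in limma. At an unadjusted p below 0.05, 1 was higher and 7 lower for Tfam (8.29% and 9.1% of all genes), and 0 higher and 2 lower for Cox10 (6.4% and 6.62%). Hspa5, the main ER chaperone, had -0.11 as its log2 fold change in Tfam-deficient lungs (limma adjusted p = 0.510). For Rptor 11 of the 19 were lower (18.2% of all genes) and 0 higher, among them Sdf2l1 (-0.66) and Hyou1 (-0.52). The count was 7 without deficient replicate 2 or any 1 of the 3 controls. Of 9 mitochondrial chaperones and proteases, 0 passed for Tfam or Cox10 in limma. At an unadjusted p below 0.05, 1 was higher for Tfam (Hspa9, log2 fold change 0.25), compared with 8.29% of all genes, and 0 passed for Cox10. With Rptor deleted, 4 of the 9 were lower (18.2% of all genes), led by Hspd1 (-0.53). Of 19 bZIP partners, 1 (Jun, -0.33) was lower in the Tfam line, compared with 2.63% of all genes. With Rptor deleted 3 (Cebpa, 0.65, Cebpd, 0.48, and Junb, 0.29) were higher and 2 (Nfe2l2, -0.26, and Atf1, -0.22) lower, shares no larger than those of all genes (16.6% and 18.2%). Of the lower genes 0 were left without control replicate 2, and 1 without control replicate 3 or deficient replicate 2. The call of Junb was lost whichever sample was left out. Of 14 immediate early genes, which can respond to handling of tissue, 0 were higher (2.03% of all genes) and 2 lower (2.63%) with Tfam deleted (Btg2, -0.48, and Jun). With Rptor deleted 2 were higher (Dusp1, 0.56, and Junb) and 1 lower (Btg2, -0.67), again no larger a share than that of all genes (16.6% and 18.2%), and Junb was lost with the replicate block. These are values set beside those of Atf3 and Atf4, and their part in them was not tested.

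Genes other than the members, those of the lists included, were ranked by how closely they followed the members. Over the 18 samples the log2 level less the control mean of the line was correlated with the mean of the same over the 9 members tested in all lines, as a description in which samples share libraries and groups. The 5 highest genes were Slc7a3 (r = 0.975), Aldh1l2 (0.966), Npy2r (0.953), Pck2 (0.937) and Stc2 (0.932). Npy2r encodes a receptor of neuropeptide Y, and Pck2 a mitochondrial enzyme that makes phosphoenolpyruvate. Npy2r had 12.2, 17.2 and 16.0 in control and 83.4, 112 and 102 in Tfam-deficient lungs (log2 fold change 2.64, limma adjusted p = 5.75e-05), and in the Cox10 line 39.9, 36.2 and 91.9 in deficient lungs against 18.9, 16.1 and 25.0 in control, which did not pass (log2 fold change 1.33, limma adjusted p = 0.232). Among the members, r with the mean of the others was 0.949 for Chac1, 0.894 for Atf5, 0.866 for Sesn2 and 0.808 for Trib3, compared with 0.457 for Atf4, 0.441 for Atf3, 0.385 for Ddit3, 0.147 for Nupr1 and -0.184 for Cebpb.

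Members were also set against the epithelium, in which the deletion took place. Once each sample was expressed relative to the mean log2 level of the same 3 epithelial genes, the tested members were higher without overlap for 9 of 9 (Rptor), 8 of 9 (Tfam, without Adm2) and 8 of 9 (Cox10). However, the same held for 94.0%, 56.5% and 61.8% of all genes tested. On this scale Atf4 was higher by 0.65 in Rptor-deficient lungs, the reverse of its direction per library, and the cell types that hold these transcripts were not resolved.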

How the data were processed

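Whole embryonic lungs were profiled by RNA-seq in 18 samples, 3 deficient and 3 control samples in each of 3 lines, grouped by their titles. Per the labels the authors trimmed reads with Trim Galore, aligned them with HISAT2 to mm10, counted them with featureCounts and used DESeq2 (versions, annotation and strand setting are not given in the sources used here). Both sources name a column kit, the methods after lysis in TRIzol. The labels give an Illumina library protocol and the methods a BGISEQ-500 machine. The authors deposited, per gene and sample, a signal, which is the read count divided by a size factor. All values were whole multiples of a step of 0.978 to 1.02 within 0.05. Their columns of fold changes and p-values were not used, and 0 columns of per-sample values were left out. A spreadsheet had turned the symbols of 27 gene rows into dates, none of them a member.

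Values were tested as log2(value + 1) with limma 3.58.1 (R 4.3.3; lmFit, eBayes with trend), each line on its own, for genes with at least 10 in at least 3 of 6 samples, with Benjamini-Hochberg adjustment over all genes tested and a threshold of 0.05. Differences between lines came from a fit of 6 groups. Fold changes on this scale understate those of low genes. The fits of single lines were tried on simulated counts in which only genes with a mean of at least 50 were changed. This does not cover lower genes, and recovery of differences between lines was not measured. Replicate numbers in the titles are not stated to mark litters. Deviations of same-numbered samples correlated at 0.221, 0.330 and 0.259 in the Rptor line, at -0.312 to 0.151 in the Tfam line and at 0.0488 to 0.447 in the Cox10 line. The main fits of all lines, Rptor included, were unpaired, and the replicate block was an alternative. Alternatives were pseudocounts of 0.1 and 5, no filter, a mean of at least 50, equal totals, TMM scaling, the replicate block, 1 fit of all samples, a threshold of 0.01 and leaving out each sample. Named genes were all members, the 5 genes most correlated with them, and from each list at most the 4 largest changes per line past the threshold, together with Hspa5, Hspa9, Nup62, Il4i1, Mars, Tmem189, the smooth muscle markers, Asns of the Cox10 line and Aldh1l2 and Atf1 of the Rptor line, named after their values were seen. The members, lists and tests were chosen with earlier results of these data known. Promoters came from RefSeq (GRCm38.p6).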

Additional observations from a re-analysis of the deposited data

Results flagged for a closer look

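The following results are listed because the effect of deletion differed between lines by a test of the difference itself (limma, all 18 samples). Between the Rptor and Tfam lines the differences in log2 fold change were -0.72 for Atf4, -1.38 for Atf5, -3.80 for Chac1, -1.88 for Trib3 and -1.14 for Sesn2. The call of Trib3 was lost without Tfam control replicate 2 (limma adjusted p = 0.0578) or Tfam-deficient replicate 3 (adjusted p = 0.0509). Between the Rptor and Cox10 lines they were -0.55 for Atf4, -2.20 for Chac1 and -0.75 for Sesn2. Between the Tfam and Cox10 lines the difference of Atf5 was 1.10. These are differences per library. Relative to epithelial genes, which was not tested, Atf4 was higher in the Rptor line by 0.18 (against Tfam) and 0.23 (against Cox10), and Sesn2 differed by -0.24 and 0.028. No group had 4 or more samples, so that single samples were not screened for outliers.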

How the results depend on the processing

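The log2 fold changes of members and the differences between lines kept their direction in every called result under every setting tried, other than the level relative to epithelial genes, on which Atf4 of the Rptor line turned from -0.53 to 0.65 and its differences from the Tfam and Cox10 lines from -0.72 and -0.55 to 0.18 and 0.23, and that of Sesn2 from the Cox10 line from -0.75 to 0.028. Of the alternative values of single genes 1074 kept their side of the threshold, 31 lost it and 7 gained it. The number of members called, Adm2 of the Tfam line included, was 3 in the Rptor line and 1 at an adjusted p below 0.01, and 1 in the Cox10 line and 0 at that threshold. Of all genes, 2719 of 14940 for Rptor and 15 of 14937 for Cox10 passed 0.01. With the replicate number as a block the number of members was 2 for Rptor, 6 for Tfam and 0 for Cox10 (Trib3, limma adjusted p = 0.0566). With the block 5768, 802 and 48 of all genes passed. Not every sample of the Tfam and Cox10 lines correlated best with its own number. When each sample was left out in turn the number ranged from 1 to 3 for Rptor, 5 to 7 for Tfam and 0 to 2 for Cox10, and between lines from 4 to 5 (Rptor and Tfam), 3 to 4 (Rptor and Cox10) and 1 in every fit (Tfam and Cox10). The number of all genes called changed as well, from 3 to 251 for Cox10. For Rptor it was 3597 to 5336 in the fits that called 1 member. With 1 fit of all samples the limma adjusted p was 0.0892 for Atf3 in the Tfam line, 0.0674 for Trib3 and 0.00036 for Chac1 in the Cox10 line, and 0.0144 for Sesn2 in the Rptor line. Without a filter Adm2 had a log2 fold change of -1.66 (limma adjusted p = 0.0221) in the Rptor line and 1.76 (0.367) in the Cox10 line, and Ddit3 (0.0549) and Atf3 (0.0667) of the Rptor line lost their calls. For the pathway lists, settings chosen after seeing the data gave 39 to 54 genes against 52 for Rptor, 17 to 30 against 24 for Tfam and 0 to 7 against 2 for Cox10 when a sample was left out, and 58, 27 and 1 with the replicate block. The 54 genes came without Rptor-deficient replicate 1, where 5336 of all genes passed. The 7 came without Cox10-deficient replicate 3, where 251 of all genes passed. The count tests that had been foreseen were not run, because whole reads were not recovered from the scaled values. The causes of these changes were not tested. With 3 samples a group, the change of a low gene such as Chac1 of the Rptor line was not resolved.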

Other observations

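Of receptors and relatives of the members, 2 of 12 were higher in the Rptor line (16.6% of all genes), 1 of 11 in the Tfam line (2.03%) and 1 of 12 in the Cox10 line (0.141%), and 0 were lower. The Rptor count was 4 without deficient replicate 1, and 3 without deficient replicate 2 or with the replicate block. Calcrl, the receptor subunit for the peptide that Adm2 encodes, was higher in all 3 lines. It had 1192, 1148 and 905 in control and 1730, 1738 and 1756 in Rptor-deficient lungs (log2 fold change 0.70, limma adjusted p = 0.0014), 1221, 1138 and 1171 against 1610, 1411 and 1701 in the Tfam line (0.42, limma adjusted p = 0.00995), and 804, 865 and 798 against 1303, 1220 and 1636 in the Cox10 line (0.74, limma adjusted p = 0.0365). Leaving out 1 sample at a time kept the call in 6 of 6 fits for Rptor, 5 of 6 for Tfam and 2 of 6 for Cox10, and the replicate block ended that of Cox10 (limma adjusted p = 0.0569). The summed level of 5 endothelial markers was 29186 to 30827 in control against 37705 to 41817 in Rptor-deficient lungs, 29562 to 31104 against 31291 to 33242 in the Tfam line, and 20589 to 21148 against 20999 to 33337, which overlapped, in the Cox10 line. Of the 5 markers 5 were higher for Rptor in limma (16.6% of all genes), and 0 passed in the other lines. At an unadjusted p below 0.05, 2 were higher for Tfam (8.29% of all genes) and 0 for Cox10 (6.4%). The part of the endothelium in the values of Calcrl was not tested.

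Sesn1, a paralogue of Sesn2 that p53 and FOXO factors induce, was higher in the Rptor line, with a log2 fold change of 0.45 (limma adjusted p = 0.000962). That of Sesn2 was -0.35 and did not pass (limma adjusted p = 0.0901).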
